A study of Mus musculus with 6 samples.

Results

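Hormone receptors and luminal transcription factors of the mammary epithelium were described in mouse mammary tumours with and without serglycin. The group holds 10 genes chosen by name, of which 9 were measured among 22180 genes with values, and each is represented by the probe set with the highest mean over the 6 arrays. The remaining gene, Prlr, the prolactin receptor, was not analysed here because no probe set is paired with it in the annotation used. Tumours came from 3 PyMT+ SG-/- mice, which lack serglycin, and from 3 PyMT+ SG+/- mice, which are heterozygous for it. Serglycin is a proteoglycan of secretory granules. All 6 mice carried PyMT, the polyoma virus middle T oncogene that drives the tumours, so no normal gland stands beside them, and the SG+/- mice themselves carry 1 disrupted serglycin allele. The labels give no age, sex, strain or transgene promoter. Each tumour was measured on 1 array, and the values are log2 expression values. All differences are SG-/- minus SG+/- on that scale, and n = 3 per genotype limits their precision.

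In the normal mammary gland a minority of luminal cells carries the estrogen receptor and progesterone receptor and senses the ovarian hormones, with Foxa1 and Gata3 as transcription factors of this lineage. Those cells pass the signal to their neighbours through secreted factors such as RANK ligand and Wnt4. Prolactin and the transcription factor Elf5 direct the other luminal branch, the alveolar cells that make milk. PyMT tumours of mice are known to lose hormone receptors as they progress.

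Foxa1 and Esr1 had the highest correlation of any pair of members over the tumours, and the stretches before their start sites are shown for that reason. They were taken from RefSeq (build GRCm38.p6), plus strand for Esr1 and minus strand for Foxa1, each being the 250 bases before a start site, read 5′ to 3′ in the direction of the gene. Capitals mark matches on either strand to short motifs listed after the sequences. The Esr1 windows are chr10:4611739-4611988 and chr10:4709908-4710157 and the Foxa1 window is chr12:57546112-57546361.
Esr1 first start: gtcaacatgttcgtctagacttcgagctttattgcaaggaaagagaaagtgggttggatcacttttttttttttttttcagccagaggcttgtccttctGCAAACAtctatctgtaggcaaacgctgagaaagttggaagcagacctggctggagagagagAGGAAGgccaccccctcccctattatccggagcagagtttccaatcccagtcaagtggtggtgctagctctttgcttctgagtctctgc
Esr1 second start: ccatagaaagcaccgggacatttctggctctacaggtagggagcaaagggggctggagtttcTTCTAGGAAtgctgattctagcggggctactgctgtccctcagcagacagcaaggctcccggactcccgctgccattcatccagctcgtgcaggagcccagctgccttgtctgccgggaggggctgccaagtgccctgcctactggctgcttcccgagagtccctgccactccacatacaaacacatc
Foxa1: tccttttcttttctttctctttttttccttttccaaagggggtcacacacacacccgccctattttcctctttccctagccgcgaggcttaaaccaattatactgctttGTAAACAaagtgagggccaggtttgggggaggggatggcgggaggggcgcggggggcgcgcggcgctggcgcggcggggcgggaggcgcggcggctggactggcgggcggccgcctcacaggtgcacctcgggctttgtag
The motifs were AGGTCA (bound by nuclear receptors), the palindromic estrogen response element with its exact consensus, AGAACA (bound by the progesterone receptor), TGTTTAC and TGTTTGC (forkhead factors), AGATAA (bound by Gata3), AGGAAG (ETS factors such as Elf5) and TTCNNNGAA (STAT5), none of them overlapping in the windows shown. The Foxa1 window holds TGTTTAC on the other strand, beginning at position -141 from the start, a motif present in 3.17% of all 32851 windows of this length. The first Esr1 window holds TGTTTGC on the other strand at -151, a motif of 4.3% of windows, and AGGAAG at -89, which 29.5% of windows hold. The second Esr1 window holds TTCNNNGAA at -188, found in 7.02% of windows. Over the 17 start sites of the 10 genes, AGGAAG was present in 7, TGTTTAC in 2, AGGTCA in 2, TTCNNNGAA in 2, TGTTTGC in 1, AGAACA in 1, AGATAA in 0 and the estrogen response element in 0. The last 4 shares over all windows were 4.3%, 16.1%, 9.99% and 0.0639%, and AGGTCA was present in 14% of them. The windows of Gata3, Elf5 and Wnt4 held none of these motifs.

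Facts of the whole series bear on the values as follows. Srgn, the targeted gene, lay between 4.89 and 5.07 in SG-/- tumours and between 6.35 and 6.76 in SG+/- tumours, a difference of -1.52 (limma adjusted p = 0.467). Luminal epithelial markers were present in every tumour, with Krt8 between 12.06 and 12.32 and Epcam between 12.09 and 12.24, which fits the tissue label. The arrays differed in their spread, and the interquartile range over all probe sets, 2.56, was smallest for SG-/- replicate 3, with 2.85 to 3.15 elsewhere. The mean of 1390 olfactory and vomeronasal receptor genes, taken as silent, was highest for SG-/- replicate 3, at 5.87, with 4.58 to 5.63 elsewhere. The 95th percentile of these silent genes was exceeded in all 6 arrays by Gata3 and Elf5, in 5 by Esr1 and Foxa1, in 4 by Cited1, in 3 by Pgr, in 2 by Wnt4 and in 0 by Greb1 and Tnfsf11. The array in which Esr1 and Foxa1 fell short was SG-/- replicate 3, where that percentile was 8.04. Wnt4 fell short there as well. A level of 1 probe set was not set against that of another, since each has its own scale.

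Limma called none of the 9 measured members, with 0 past an adjusted p of 0.05 and 0 past an unadjusted p of 0.05. Over all 22180 genes 0% passed the adjusted threshold and 2.11% the unadjusted one. The values of the genotypes overlapped in all 9, while over all genes they did not overlap in 6.03%. The adjusted p was 1.00 for each member, and the smallest unadjusted p was 0.132. The differences were above 0 in 7 members and below 0 in 2, with a median of 0.090, against a median of -0.014 over all genes, of which 46.3% were above 0. The smallest exact permutation p that 3 against 3 tumours allow is 0.1, and the smallest among the members was 0.2. The labels number a separate mouse for each tumour, so the spread is that between mice. In bulk tumours, fewer cells of a type and less RNA per cell cannot be told apart.

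**Figure D1:**
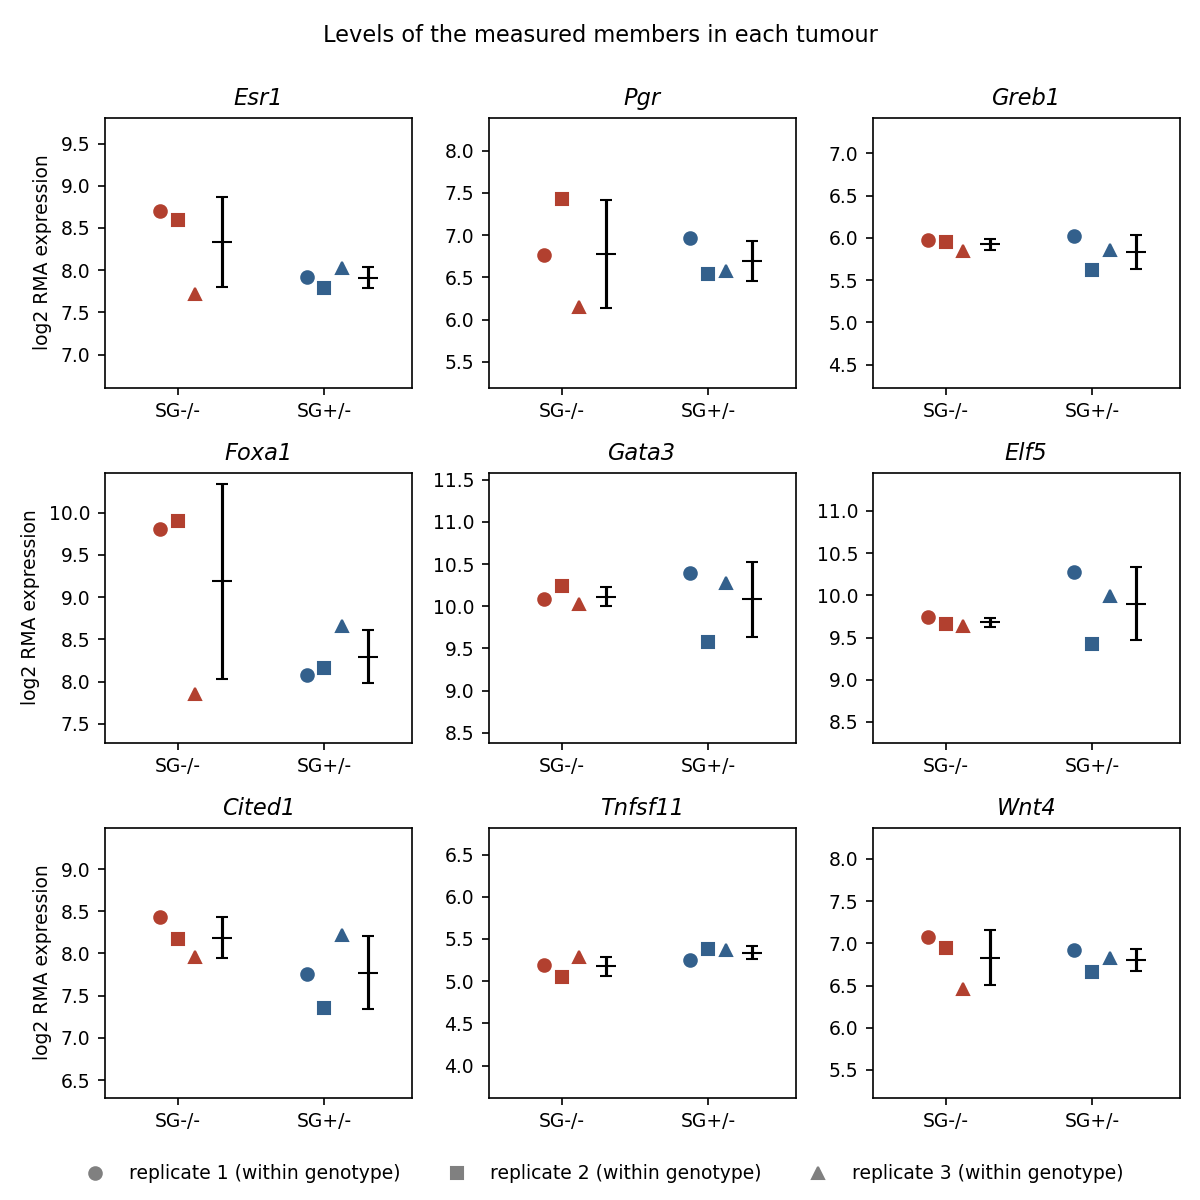
Log2 expression of the 9 measured members in each tumour, SG-/- in red on the left of each panel and SG+/- in blue on the right, with 1 symbol per tumour and the mean with its SD (n = 3) in black. All panels span the same number of log2 units. Foxa1 stands at 9.80 and 9.90 in SG-/- replicates 1 and 2 and at 7.86 in SG-/- replicate 3, and the genotypes overlap in every panel.

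Esr1 encodes estrogen receptor alpha, a nuclear receptor that activates genes when it binds estrogen. Its level was 8.70, 8.59 and 7.72 in SG-/- replicates 1 to 3, against 7.92, 7.79 and 8.03 in SG+/- replicates 1 to 3. Above every SG+/- tumour lay SG-/- replicates 1 and 2, while SG-/- replicate 3 lay below all of them. The mean was 8.34 ± 0.53 in SG-/- and 7.91 ± 0.12 in SG+/- tumours (SD over 3 tumours each). The genotype difference was 0.42 (SE, the standard error, 0.26), with 95% confidence limits of -0.20 and 1.04 (limma adjusted p = 1.00), within the spread between the SG-/- tumours. Leaving out SG-/- replicate 3 gave 0.73 (limma adjusted p = 0.645), and leaving out SG-/- replicate 1 gave 0.24.

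Pgr encodes the progesterone receptor, itself a target of the estrogen receptor. It read 6.76, 7.43 and 6.15 in SG-/- replicates 1 to 3, against 6.97, 6.53 and 6.57 in SG+/- replicates 1 to 3. The SG-/- tumours held both the highest and the lowest of the 6 values. The difference was 0.090 (SE 0.32), with 95% confidence limits of -0.66 and 0.84 (limma adjusted p = 1.00). Left out singly, SG-/- replicate 2 gave -0.24, SG-/- replicate 3 gave 0.40, SG+/- replicate 1 gave 0.23, SG+/- replicate 2 gave 0.0110 and SG+/- replicate 3 gave 0.0310. SG-/- replicate 2, which had the highest Pgr value, also had the highest mean over the basal and myoepithelial markers, which were measured for 7 of 8 genes. That mean was 8.61, 9.29 and 8.08 in SG-/- replicates 1 to 3, against 8.10, 8.84 and 8.45 in SG+/- replicates 1 to 3, with 6 of 7 markers above 0 in their difference and none of the 7 averaging below the 40th percentile. The order of the marker mean was not the Pgr order. SG+/- replicate 2, with the highest marker mean of the SG+/- tumours, had the lowest Pgr value among them. The part of these cells in the Pgr values was not tested.

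Greb1 is an estrogen-induced cofactor of the estrogen receptor and a common readout of its activity. Its values were 5.97, 5.96 and 5.85 in SG-/- replicates 1 to 3, against 6.03, 5.63 and 5.85 in SG+/- replicates 1 to 3. The SG+/- tumours spanned the whole SG-/- range. The difference was 0.090 (SE 0.14) (limma adjusted p = 1.00). Leaving out SG+/- replicate 1 gave 0.19, and leaving out SG+/- replicate 2 gave -0.0154. The mean of Greb1 lay under 6.09, the 40th percentile of probe set means, and its value was under the 95th percentile of the silent receptor genes in all 6 arrays. How low this probe set can read is unknown, so a difference may be understated.

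Foxa1 is a pioneer factor that opens chromatin for the estrogen receptor. It had the widest range of the members, 2.04 log2 units over the 6 tumours. Its level was 9.80, 9.90 and 7.86 in SG-/- replicates 1 to 3, against 8.07, 8.16 and 8.65 in SG+/- replicates 1 to 3. The values of SG-/- replicates 1 and 2 exceeded every SG+/- tumour by more than 1 log2 unit, and SG-/- replicate 3 was the lowest of the 6. The mean was 9.19 ± 1.15 in SG-/- and 8.30 ± 0.31 in SG+/- tumours (SD over 3 tumours each). That gave a difference of 0.89, a 1.85-fold ratio, (SE 0.53), with 95% confidence limits of -0.37 and 2.15 (limma adjusted p = 1.00). The exact permutation p was 0.4. The SD of the SG-/- tumours was larger than that of 98.9% of all genes. The difference was 1.55 without SG-/- replicate 3 (limma adjusted p = 0.645), 0.58 when SG-/- replicate 1 was left out, 0.53 when SG-/- replicate 2 was, and 1.39 with limma array weights (adjusted p = 0.193), which gave SG-/- replicate 3 the lowest weight.

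Some markers of salivary gland were high in some SG-/- tumours, not all in the same ones as Foxa1. The salivary gland list was measured for all 14 genes, 9 with a difference above 0, and none had a mean under the 40th percentile. Its mean was 9.43, 8.23 and 9.43 in SG-/- replicates 1 to 3, against 7.54, 8.35 and 8.17 in SG+/- replicates 1 to 3, which is not the Foxa1 order. Within it Prol1, a secreted protein of salivary and lacrimal glands chosen here after its values were seen, read 10.4, 10.9 and 6.40 in SG-/- replicates 1 to 3, against 6.52, 5.46 and 7.74 in SG+/- replicates 1 to 3. Prol1 was thus high in the same SG-/- tumours as Foxa1. Klk1, a tissue kallikrein also picked after its values were seen, read 9.02, 10.4 and 6.74 in SG-/- replicates 1 to 3, against 4.58, 3.99 and 4.25 in SG+/- replicates 1 to 3. Klk1 in SG-/- replicate 3, where Foxa1 was lowest, still lay above every SG+/- tumour. Bpifa2, a secreted salivary protein likewise picked after its values were seen, read 13.5, 7.26 and 13.6 in SG-/- replicates 1 to 3, against 6.18, 5.98 and 6.47 in SG+/- replicates 1 to 3. Bpifa2, Amy1 and Dcpp1 were lower in SG-/- replicate 2 than in the other SG-/- tumours, where Foxa1 was highest in SG-/- replicate 2. Other genes of the list went the other way, with 5 of the 14 differences below 0. Among these were Dcpp2 at -2.54 and Aqp5 at -0.21, also picked after their values were seen. Their SG-/- values all lay below the SG+/- values. Over the list, 3 genes lay above without overlap and 2 below, where 2.84% and 3.19% of all genes did. The part of salivary tissue in the Foxa1 values was not tested.

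Gata3, a zinc finger factor needed for luminal identity, is also a gene of T helper cells. Its probe set with the higher mean read 10.08, 10.24 and 10.02 in SG-/- replicates 1 to 3, against 10.39, 9.58 and 10.27 in SG+/- replicates 1 to 3. All SG-/- values lay within the SG+/- range. The difference was 0.034 (SE 0.23), with 95% confidence limits of -0.50 and 0.57 (limma adjusted p = 1.00). Left out singly, SG+/- replicate 1 gave 0.19, SG+/- replicate 3 gave 0.13, SG-/- replicate 3 gave 0.080, SG+/- replicate 2 gave -0.22 and SG-/- replicate 2 gave -0.0272. The other Gata3 probe set differed by -0.050. T cell markers, measured for 8 of 9 genes and all above 0 in their difference, had a mean of 6.71, 6.49 and 6.59 in SG-/- replicates 1 to 3, against 6.38, 6.26 and 6.30 in SG+/- replicates 1 to 3. The order of that mean was not the Gata3 order, and 1 of the 8 had a mean under the 40th percentile. The part of T cells in the Gata3 values was not tested.

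Elf5 is the ETS factor that specifies alveolar cells. Its values were 9.74, 9.66 and 9.64 in SG-/- replicates 1 to 3, against 10.28, 9.43 and 9.995 in SG+/- replicates 1 to 3. The SG-/- tumours were closely alike, and the SG+/- tumours lay on both sides of them. The SD was 0.0517 in SG-/- and 0.43 in SG+/- tumours. Only 4.64% of all genes had a smaller SD in the SG-/- tumours. The difference was -0.22 (SE 0.22), with 95% confidence limits of -0.74 and 0.30 (limma adjusted p = 1.00). Leaving out SG+/- replicate 1 gave -0.0325, and leaving out SG+/- replicate 2 gave -0.46.

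Milk protein genes are targets of the alveolar programme, and their levels did not share 1 order over the tumours. Their mean over 8 genes was 8.27, 8.56 and 8.57 in SG-/- replicates 1 to 3, against 8.93, 8.07 and 8.40 in SG+/- replicates 1 to 3. Lalba, which encodes alpha-lactalbumin, read 12.7, 12.4 and 12.3 in SG-/- replicates 1 to 3, against 13.0, 9.83 and 11.9 in SG+/- replicates 1 to 3. Lalba, Csn1s1 and Csn3 were lowest in SG+/- replicate 2, where Elf5 was also lowest, but Csn1s2b was highest there and the other 4 were neither. Csn1s2b read 4.92 in that tumour, under the silent receptor mean there of 5.63, so its order over the tumours carries little weight. Of the 8, 2 had a mean under 6.09, the level that Greb1 also fell under, Csn1s2b among them. Without Lalba, the mean of the other 7 was lowest in SG-/- replicate 1, at 7.65, against 7.81 in SG+/- replicate 2. Those 7 include the 2 genes under that level.

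Cited1 is a transcriptional coactivator found in estrogen receptor positive luminal cells of the mouse gland. It read 8.43, 8.17 and 7.96 in SG-/- replicates 1 to 3, against 7.75, 7.35 and 8.22 in SG+/- replicates 1 to 3. SG+/- replicate 3 lay among the SG-/- tumours, and the other SG+/- tumours lay below them. The difference was 0.41 (SE 0.24), with 95% confidence limits of -0.16 and 0.99 (limma adjusted p = 1.00), with the smallest unadjusted p of the members. Leaving out SG+/- replicate 2 gave 0.20, leaving out SG+/- replicate 3 gave 0.63, and array weights gave 0.27.

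**Figure D2:**
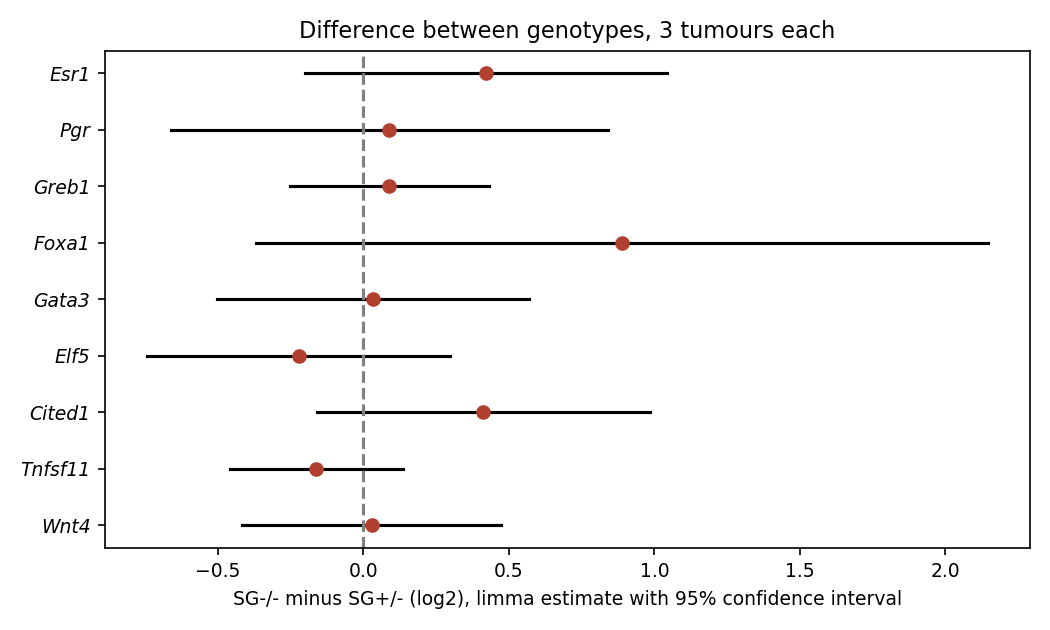
Difference of each member as SG-/- minus SG+/- on the log2 scale (points) with its 95% confidence interval from limma (lines), 3 tumours per genotype. Every interval includes 0, and that of Foxa1, from -0.37 to 2.15, is the widest.

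Tnfsf11 encodes RANK ligand, which progesterone receptor positive cells secrete and which activated T cells also make. Its values were 5.19, 5.05 and 5.28 in SG-/- replicates 1 to 3, against 5.25, 5.39 and 5.37 in SG+/- replicates 1 to 3. The values of SG-/- replicates 1 and 2 lay below every SG+/- tumour. The difference was -0.16 (SE 0.13), with 95% confidence limits of -0.46 and 0.14 (limma adjusted p = 1.00). Leaving out SG-/- replicate 2 gave -0.10, and array weights gave -0.27. No array had a Tnfsf11 value above the 95th percentile of the silent receptor genes, so the values cannot show how much RANK ligand the tumours made.

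Wnt4 is a ligand that progesterone induces in the gland. It read 7.08, 6.95 and 6.46 in SG-/- replicates 1 to 3, against 6.92, 6.66 and 6.82 in SG+/- replicates 1 to 3. As with Esr1 and Foxa1, SG-/- replicates 1 and 2 were above every SG+/- tumour and SG-/- replicate 3 below. The difference was 0.029 (SE 0.19), with 95% confidence limits of -0.42 and 0.47 (limma adjusted p = 1.00). Left out singly, SG-/- replicate 3 gave 0.21, SG-/- replicate 1 gave -0.095, SG-/- replicate 2 gave -0.0300, SG+/- replicate 2 gave -0.0415 and SG+/- replicate 1 gave 0.090.

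No pair of members passed the adjustment over the 36 pairs, so the correlations over the 6 tumours are given as a description, and the tumours share arrays whose spread differs. Esr1 and Foxa1 had the highest Pearson correlation, r = 0.98 (exact permutation p = 0.00694, adjusted over the pairs 0.25), with Spearman's rho = 0.89 (exact permutation p = 0.0333, adjusted 0.308). Without SG-/- replicates 1 and 2, the tumours farthest from the median of Esr1, r was 0.85, and with each genotype centred on its own mean it was 0.97. Esr1 and Wnt4 had r = 0.83 (exact permutation p = 0.0431, adjusted 0.362) and rho = 0.94 (exact permutation p = 0.0167, adjusted 0.3). Their r was 0.84 without the same tumours and 0.95 within genotypes. Foxa1 and Wnt4 had r = 0.77 (exact permutation p = 0.0819, adjusted 0.362) and rho = 0.77 (exact permutation p = 0.103, adjusted 0.308). For this pair r was 0.55 without SG-/- replicates 1 and 2, 0.87 within genotypes and -0.0095 over the SG+/- tumours alone.

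Gata3, Elf5 and Greb1 were each highest in SG+/- replicate 1 and lowest in SG+/- replicate 2. Gata3 and Elf5 had r = 0.84 (exact permutation p = 0.0444, adjusted 0.362) and rho = 0.94 (exact permutation p = 0.0167, adjusted 0.3). Their r was 0.64 without SG+/- replicates 1 and 2 and 0.94 within genotypes, but 0.0067 over the SG-/- tumours alone, which hardly differed. Gata3 and Greb1 had r = 0.89 (exact permutation p = 0.0278, adjusted 0.362) and rho = 0.77 (exact permutation p = 0.103, adjusted 0.308), and r was 0.0488 without SG+/- replicates 1 and 2, so this relation rests on those tumours. Elf5 and Greb1 had r = 0.69 (exact permutation p = 0.129, adjusted 0.362) and rho = 0.83 (exact permutation p = 0.0583, adjusted 0.308), with r = 0.97 without SG+/- replicates 1 and 3 and 0.97 within genotypes. All Greb1 values lay under the 95th percentile of the silent receptor genes. Foxa1 and Elf5 had r = -0.15 (exact permutation p = 0.765, adjusted 0.81) and rho = 0.0857 (exact permutation p = 0.919, adjusted 0.919), with r = 0.26 without SG-/- replicates 1 and 2 and 0.0889 within genotypes.

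**Figure D3:**
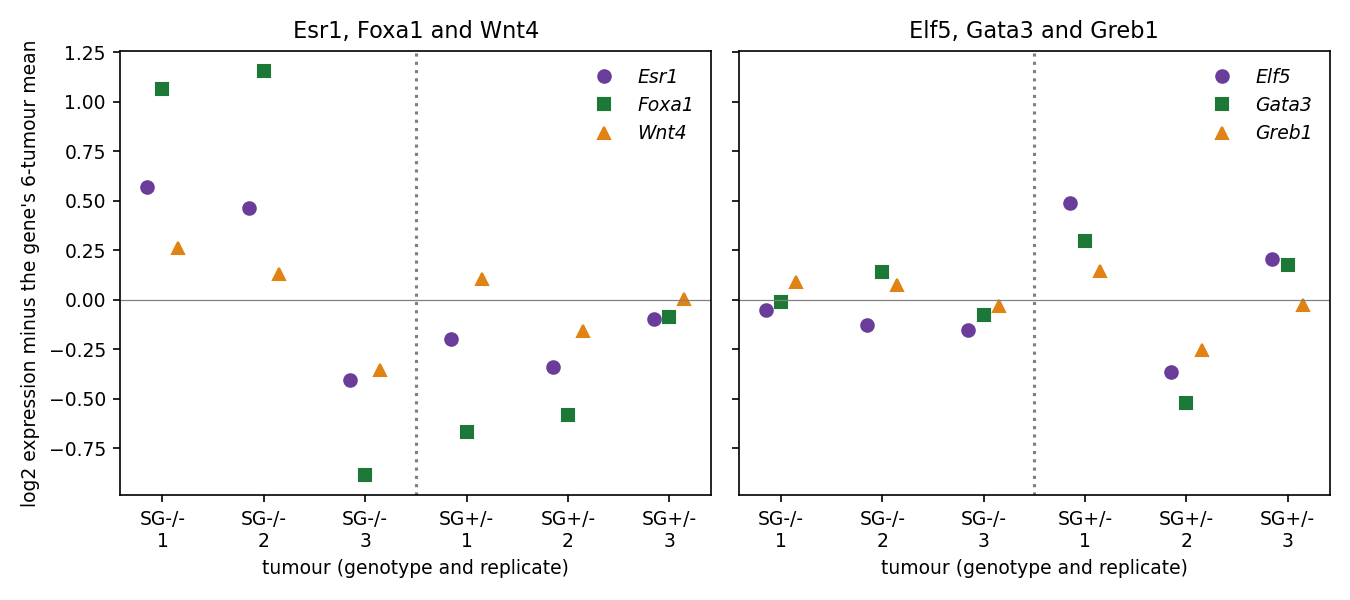
Log2 expression minus the gene's mean over the 6 tumours, for Esr1, Foxa1 and Wnt4 on the left and Elf5, Gata3 and Greb1 on the right, with SG-/- tumours left of the dotted line and SG+/- tumours right of it in each panel. The left set is high in SG-/- replicates 1 and 2 and lowest in SG-/- replicate 3. In that array each gene of the left set lay under the 95th percentile of the silent receptor genes, 8.04. The right set is highest in SG+/- replicate 1 and lowest in SG+/- replicate 2.

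Among 13167 genes with a mean above the dim level, those most like Esr1 over the 6 tumours were Plxnd1 (r = 0.997), a semaphorin receptor, Arpc5 (r = 0.996), a subunit of an actin nucleation complex, and Emcn (r = 0.985), a marker of endothelium. Emcn read 9.19, 9.04 and 8.40 in SG-/- replicates 1 to 3, against 8.57, 8.30 and 8.56 in SG+/- replicates 1 to 3. The endothelial list, measured for all 6 genes and above 0 in each difference, had a mean of 8.66, 8.43 and 8.19 in SG-/- replicates 1 to 3, against 8.07, 7.90 and 8.12 in SG+/- replicates 1 to 3. In SG-/- replicate 3, where Esr1 was lowest of all, the list mean still lay above every SG+/- tumour, so its order was not the Esr1 order. Of the 6 genes, 4 had all SG-/- values above all SG+/- values, where 2.84% of all genes did. None of the 6 had a mean under the 40th percentile, and the part of endothelium in the Esr1 values was not tested. Shprh (r = 0.995), Prag1 (r = 0.994) and Ric1 (r = 0.993) were most like Pgr, and Palm3 (r = 0.999), Mss51 (r = 0.997) and Plekhh1 (r = 0.993) most like Elf5. With 6 tumours and this many genes, correlations of this size describe the tumours at hand.

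Partners and targets of the steroid receptors were measured for 19 of 24 genes. Their differences were above 0 in 7 and below 0 in 12, with a median of -0.12. Of these, 0 passed the adjusted p, 1 was above 0 at an unadjusted p of 0.05 and 0 below, where 1.43% and 0.685% of all genes were. Myb, a transcription factor of luminal cells that the estrogen receptor activates, was the one. It read 8.86, 8.75 and 7.86 in SG-/- replicates 1 to 3, against 7.85, 7.68 and 7.99 in SG+/- replicates 1 to 3, which is the arrangement of Esr1 and Foxa1 save that SG-/- replicate 3 was not the lowest. The Myb difference was 0.65 (SE 0.27) (limma adjusted p = 1.00), 0.97 without SG-/- replicate 3 (limma adjusted p = 0.645) and 0.39 with the mean of its probe sets. Leaving out any of the other 5 tumours gave 0.47 to 0.73, with an unadjusted limma p of 0.0675 to 0.143, so the unadjusted call was lost in each.

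The other named genes of that list did not pass either threshold. Esr2, the second estrogen receptor, differed by -0.16, and Nrip1, a corepressor of nuclear receptors, by -0.24. Igfbp4, an IGF binding protein, had a difference of 0.36 and Fkbp5, a receptor cochaperone, of -0.38. Nrip1 was among 4 genes of the list whose SG-/- values all lay below the SG+/- values, beside 0 above, where 3.19% and 2.84% of all genes were. The others were the coactivators Ep300 and Crebbp and the cochaperone Fkbp4, with differences of -0.17, -0.12 and -0.14 (limma adjusted p = 1.00 for each), chosen after their values were seen.

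Prolactin signalling genes were measured for all 13, with 2 differences above 0, 11 below and a median of -0.11. None passed an adjusted or an unadjusted p of 0.05 in limma. Ghr, the growth hormone receptor, differed by -0.11, Ptpn1, a phosphatase of the pathway, by -0.26, and Cebpb, a transcription factor of the gland, by -0.19. Jak2, the kinase bound to the prolactin receptor, had a difference of 0.15 and Socs2, a feedback inhibitor, of -0.21. These genes around the receptor that was not analysed here, inhibitors of its signal among them, thus gave differences of at most 0.26 in size.

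Genes around RANK and Wnt signalling were measured for 16 of 17, with 6 differences above 0, 10 below and a median of -0.034. None passed an adjusted or an unadjusted p of 0.05 in limma. Tnfrsf11a, which encodes RANK, the receptor for the Tnfsf11 product, read 9.80, 10.07 and 9.53 in SG-/- replicates 1 to 3, against 10.12, 9.42 and 9.65 in SG+/- replicates 1 to 3, and differed by 0.072 (SE 0.22). Lrp6, a Wnt coreceptor, differed by -0.26 (SE 0.12), with no overlap between the genotypes. It was the only such gene of the list, where 6.03% of all genes did not overlap. Lgr4, a receptor for R-spondins, differed by -0.34, Map3k14, a kinase of noncanonical NF-kappaB signalling, by -0.29 and Sfrp1, a secreted Wnt inhibitor, by 0.37.

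Other luminal transcription factors were measured for all 20, with 8 differences above 0, 12 below and a median of -0.059. None passed the adjusted p, 0 were above 0 at an unadjusted p of 0.05 and 1 below, where 1.43% and 0.685% of all genes were. That gene was Bcl11a, a zinc finger factor known in the mouse from luminal progenitors. Bcl11a read 8.25, 8.28 and 8.04 in SG-/- replicates 1 to 3, against 8.69, 9.24 and 8.45 in SG+/- replicates 1 to 3. The groups did not overlap, and the difference was -0.60 (SE 0.22) (limma adjusted p = 1.00). The unadjusted call was lost in 2 of the 6 fits with 1 tumour left out, with differences of -0.38 (SG+/- replicate 2 omitted) and -0.53 (SG-/- replicate 3 omitted). It was -0.26 with the mean of its probe sets, since a second and dimmer probe set differed by 0.088. Spdef, an ETS factor of secretory cells, had a difference of 0.18, Runx1 of -0.21, Ehf of -0.19 and Sox9 of -0.16. Bcl11a and Runx1 were the 2 genes of the list whose SG-/- values all lay below the SG+/- values. None lay wholly above, where 3.19% of all genes lay below and 2.84% above.

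Milk protein genes were measured for all 8, with 4 differences above 0, 4 below and a median of -0.011. Of the 8, 2 had a mean under the dim level of 6.09. None passed an adjusted or an unadjusted p of 0.05 in limma. Csn2, beta-casein, differed by -0.31, Wap, whey acidic protein, by -0.75 and Csn1s2a by -0.22, while Lalba had a difference of 0.86 and Glycam1 of 0.36. Standard errors of Wap and Lalba were 0.61 and 0.72.

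**Figure D4:**
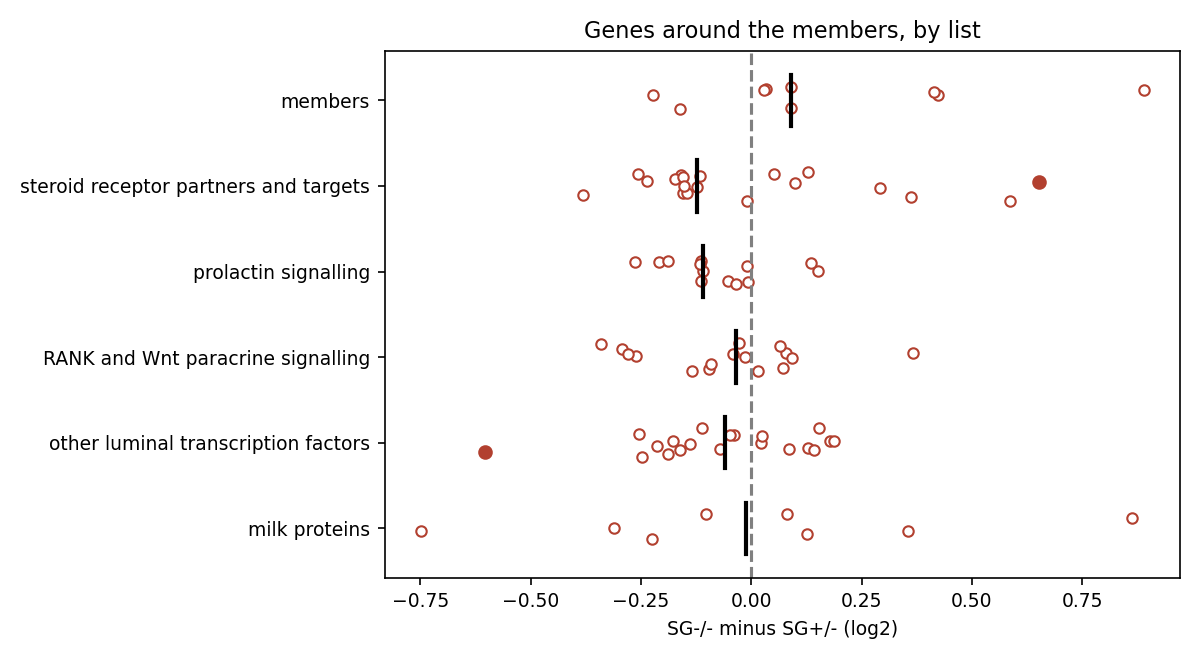
Difference as SG-/- minus SG+/- (log2) of each measured gene, 1 row per list, with the list median as a black bar and filled points for an unadjusted limma p under 0.05. The filled points are Myb at 0.65 and Bcl11a at -0.60, and the list medians lie between -0.12 and 0.090.

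Lists of cell types gave these differences beside the members, where 46.3% of all genes were above 0. Luminal epithelium had 7 of 9 markers above 0 and a median of 0.071, and its mean was 11.02, 10.89 and 10.68 in SG-/- replicates 1 to 3, against 10.80, 10.74 and 10.64 in SG+/- replicates 1 to 3. Markers of luminal progenitor and alveolar cells had a median of 0.081, with 4 of 7 above 0. Of 4 markers of hormone-sensing cells only Prom1 and Wnt5a were measured, with differences of -0.050 and -0.28, so this list could not be used to check the receptor genes. The median was 0.31 for basal and myoepithelial cells, 0.58 for fibroblasts with 9 of 9 above 0, 0.32 for adipocytes with 7 of 7, 0.23 for T cells with 8 of 8, 0.36 for other immune cells with 7 of 8 and 0.39 for endothelium with 6 of 6. It was 0.30 for salivary gland and -0.0058 for skeletal muscle. No gene of these lists passed the adjusted p in limma. At an unadjusted limma p of 0.05, 3 genes each of the fibroblast and T cell lists were above 0. So were 2 each for endothelium and other immune cells, 1 for luminal epithelium and 3 for salivary gland, which also had 1 below. Of all genes, 1.43% and 0.685% were. All SG-/- values exceeded all SG+/- values in 4 genes each for T cells and endothelium and 3 for fibroblasts, against 2.84% of all genes.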

How the data were processed

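RNA from 6 snap-frozen tumours, extracted with Trizol per the labels' protocols, was measured on whole-transcript arrays, 1 per tumour. The authors deposited log2 expression values per probe set, made with the robust multi-array average (RMA: background correction, quantile normalization, summary) per the labels. Affymetrix Expression Console and limma are also named, per the submitters' processing notes. No source used here names the genome build behind the array annotation.

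Of 33793 probe sets, 23521 carry 1 gene symbol in the platform annotation, 1814 several and 8458 are unnamed here. Genes kept the probe set with the highest mean, which left 22180. Genotypes were compared with limma 3.58.1 (lmFit, eBayes) in R 4.3.3, two-sided, and p-values were adjusted over all genes (Benjamini-Hochberg, threshold 0.05). Exact permutation tests were two-sided. In simulated data with 22180 genes in the same layout, 100 genes were changed by 1 and 100 by 2 on the log2 scale. Limma called 42 and 84 of them, and 5 unchanged genes. Each simulated gene had independent normal noise with its own SD, and in the tumours themselves no gene was called. The simulated shares therefore do not give the share of real changes that would be found here. Promoter windows are RefSeq's, build GRCm38.p6.

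The members and the 16 other gene lists were chosen with earlier results of these data known. The text names all members. From each of 5 pathway lists it names the gene written first and the 4 with the smallest p, and it names the 3 genes most like Esr1, Pgr and Elf5, without predicted genes, receptors and small RNAs. Plots were drawn with matplotlib 3.10.9.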

Additional observations from a re-analysis of the deposited data

How the results depend on the processing

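No member passed an adjusted p of 0.05 under any of the 13 alternatives run (another quantile normalization, centring on brighter genes, eBayes with trend and robust settings, array weights, dim genes left out, the mean of a gene's probe sets, the receptor mean as a covariate, and each tumour left out). Of 115 member values under them, 106 kept their direction and 9 reversed. Greb1 and Tnfsf11 have no value with dim genes left out, and the count of members without overlap has none with the covariate. Wnt4 was -0.0489 after another quantile normalization, and the cause was not tested. Gata3 was -0.0082 with the mean of its probe sets, since its other probe set differed by -0.050. With single tumours left out, Wnt4 ran from -0.095 to 0.21, Pgr from -0.24 to 0.40, Gata3 from -0.22 to 0.19, Greb1 from -0.0154 to 0.19 and the median of the members from -0.0272 to 0.21. Pgr was 0.64 and Wnt4 0.15 with array weights. The highest weight by far, 4.953, went to SG-/- replicate 2, the tumour with the highest Pgr value.

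The count of members without overlap between genotypes ran from 0 to 4 with single tumours left out. The 4, without SG-/- replicate 3, were Esr1, Foxa1, Tnfsf11 and Wnt4, when 21.6% of all genes did not overlap. Of 76 pathway genes, 2 had an unadjusted limma p under 0.05, when 2.11% of all genes did. The count was 12 with array weights, when 11.6% of all genes did, and 0 with the mean of probe sets, when 2.05% did. With single tumours left out, the count ran from 1 to 3, and the share of all genes from 1.47% to 5.41%. No paired analysis was possible because the mice carry no number shared between genotypes.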

Other observations

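Other luminal genes, chosen after their values were seen, add to the description. Krt19, a keratin of luminal cells, read 10.07, 10.03 and 9.37 in SG-/- replicates 1 to 3, against 9.46, 8.57 and 8.79 in SG+/- replicates 1 to 3. Its difference was 0.89 with a standard error of 0.29 (limma adjusted p = 1.00), and SG+/- replicate 1 lay among the SG-/- tumours. Aldh1a3, an enzyme that makes retinoic acid and marks luminal progenitors, read 8.82, 9.56 and 8.22 in SG-/- replicates 1 to 3, against 8.27, 8.17 and 7.91 in SG+/- replicates 1 to 3, with a difference of 0.75 (standard error 0.32, limma adjusted p = 1.00). Kit, a receptor tyrosine kinase of luminal progenitors, differed by 0.16. Aldh1a3 and Kit are 2 of 7 markers of luminal progenitor and alveolar cells, whose median difference was 0.081. Of the 7, 3 were below 0, namely Itgb3 at -0.37, Ehf at -0.19 and Elf3 at -0.14. A further probe set that the annotation gives to Gata3 together with other symbols, and that entered no comparison, read 7.74, 8.22 and 7.33 in SG-/- replicates 1 to 3, against 8.26, 6.95 and 7.72 in SG+/- replicates 1 to 3. It was highest in SG+/- replicate 1 and lowest in SG+/- replicate 2, whereas the other probe set of Gata3 alone was lowest in SG-/- replicate 3, at 6.99, with 7.03 in SG+/- replicate 2.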
